A study of Rattus norvegicus with 10 samples.

Results

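Clone S4 is a line of HSC-2 cells that, by its label, was transfected to overexpress the microRNA rno-miR-146a. It was set against the other clones of the same construct, S1 and S5. The arrays were chosen by their labels alone: 2 arrays of S4 and 4 arrays of S1 and S5, of 10 arrays in the series. HSC-2 is a hepatic stellate cell line from Wistar rats, grown in high-glucose DMEM with fetal bovine serum and antibiotics. The series has 5 lines: untransfected HSC-2, HSC-2 transfected with a scrambled control, and the 3 rno-miR-146a clones, each sampled at passage 42 and passage 43. Total RNA was labelled with biotin by the one-cycle Affymetrix protocol. Each clone is a single clone, so S4 is 1 line, and whether its passages are separate cultures is not stated. The p-values below therefore measure the spread between these arrays, which may be technical. The promoter that drives the microRNA is not given in the sources used here. The 4 arrays of the control lines were used only as a range, to say which side departed from it.

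Stellate cells are liver pericytes that store retinoids. After injury they turn into contractile myofibroblasts that deposit collagens, glycoproteins and proteoglycans. miR-146a is induced by NF-kB and dampens innate immune signalling by repressing Irak1 and Traf6, which act below the Toll-like receptors. Clones of one construct share the transfected sequence but each grew from a single cell. The mature microRNA that all 3 clones carry per the labels is shown because it is what S4, S1 and S5 have in common. The letters in capitals are its seed, bases 2 to 8, through which targets are recognised. The sequences are from RefSeq, build GRCr8, where both arms lie on the minus strand of chromosome 10, at chr10:28350053-28350074 and chr10:28350019-28350039.
rno-miR-146a-5p: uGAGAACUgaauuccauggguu
rno-miR-146a-3p: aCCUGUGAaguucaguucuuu
The microRNA itself was not analysed here, so its level in S4 against S1 and S5 is not known from these data.

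The arrays had median intensities of 97.7 to 103.7 and a lowest deposited value of 20, which is 4.32 on the log2 scale and is called the floor. Of 31099 probe sets, 27210 were tested. Among the stellate cell markers, vimentin, the fibrillar collagen chains Col1a1, Col1a2 and Col3a1, Acta2 and Timp1 were bright. Of 19 measured markers 8 had mean clone intensities below 100: Gfap, Reln, Lhx2, Ngfr, Rgs5, Cspg4, Cygb and Hgf. Lrat, the enzyme of retinoid storage, did not rise above the floor on any of the 6 clone arrays. These are levels, and no cell state was read from them. None of the 19 passed the limma threshold between S4 and the other clones. The highest difference was that of Pdgfra, at 0.70 (limma adjusted p = 0.0866), with both S4 arrays above the arrays of S1 and S5. The summed intensity of the list was 99473 to 106359 in S4 and 100060 to 104823 in S1 and S5. Most of that sum was vimentin and the collagen chains, so it does not show changes in dimmer markers. Among hepatocyte and leukocyte markers, 12 of 14 in each list had mean clone intensities below 100 and 0 were called.

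The first principal component of the 6 clone arrays separated the passages and held 46.8% of the variance. It placed the passage 42 arrays of S4, S5 and S1 at -27.1, -15.4 and -11.5. Those of passage 43 lay at 9.0, 21.0 and 24.0. S4 thus lay below S1 and S5 at both passages, so this share is not that of passage alone. The second component held 25.4% and had S4 at 15.7 and 20.7, with the S1 and S5 arrays between -17.6 and 0.995. Passage deviations of the clones correlated at 0.541 to 0.648 over probe sets, and passage was kept as a block in the comparison.

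**Figure D1:**
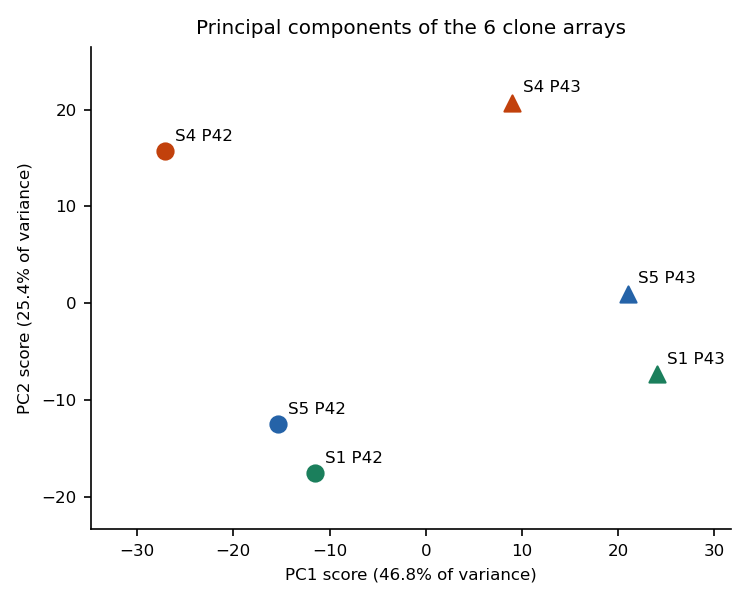
Scores of the 6 clone arrays on the first (horizontal) and second (vertical) principal component of the log2 intensities, in score units, with clones by colour and passages by symbol (circles 42, triangles 43). The S4 arrays, at 15.7 and 20.7 on the second component, lie above all 4 arrays of S1 and S5.

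The genes that differed between S4 and the other clones included matrix, contractile and signalling genes. Postn, Tnnt2, Aebp1, Tnc and Mfap4 were higher in S4, and Stmn2, Wnt4, Col14a1, Hey2, Dcn and Lum were lower. On the log2 scale Postn differed by 2.34 and the brighter probe set of Col14a1 by -3.30. limma with passage as a block called 226 of 27210 probe sets at a Benjamini-Hochberg adjusted p under 0.05, a share of 0.831%, with 130 higher and 96 lower in S4. The 173 called probe sets with a single gene symbol stood for 151 genes. The median size of a called difference was 0.74 and 71 probe sets differed by more than 1. At both passages, S4 lay beyond S1 and S5 of the same passage in all 226, and in 180 both S4 arrays lay beyond all 4 other arrays. The shares over all probe sets tested were 33.1% and 15.8%. The probe sets were called on these same arrays with passage as a block, which largely fixes both counts, so they describe the calls and are no support for them. The calls rest on the block and on every array: 8 remained without the block, among them Nxf7, Elavl2, Slc25a36 and Stmn2, none without S4 at passage 42 or without S4 at passage 43, and 9 to 34 without an array of S1 or S5. With the clones as units (3 line means) the count was 0, and an exact test of 2 arrays against 4 cannot go below p = 0.0667.

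**Figure D2:**
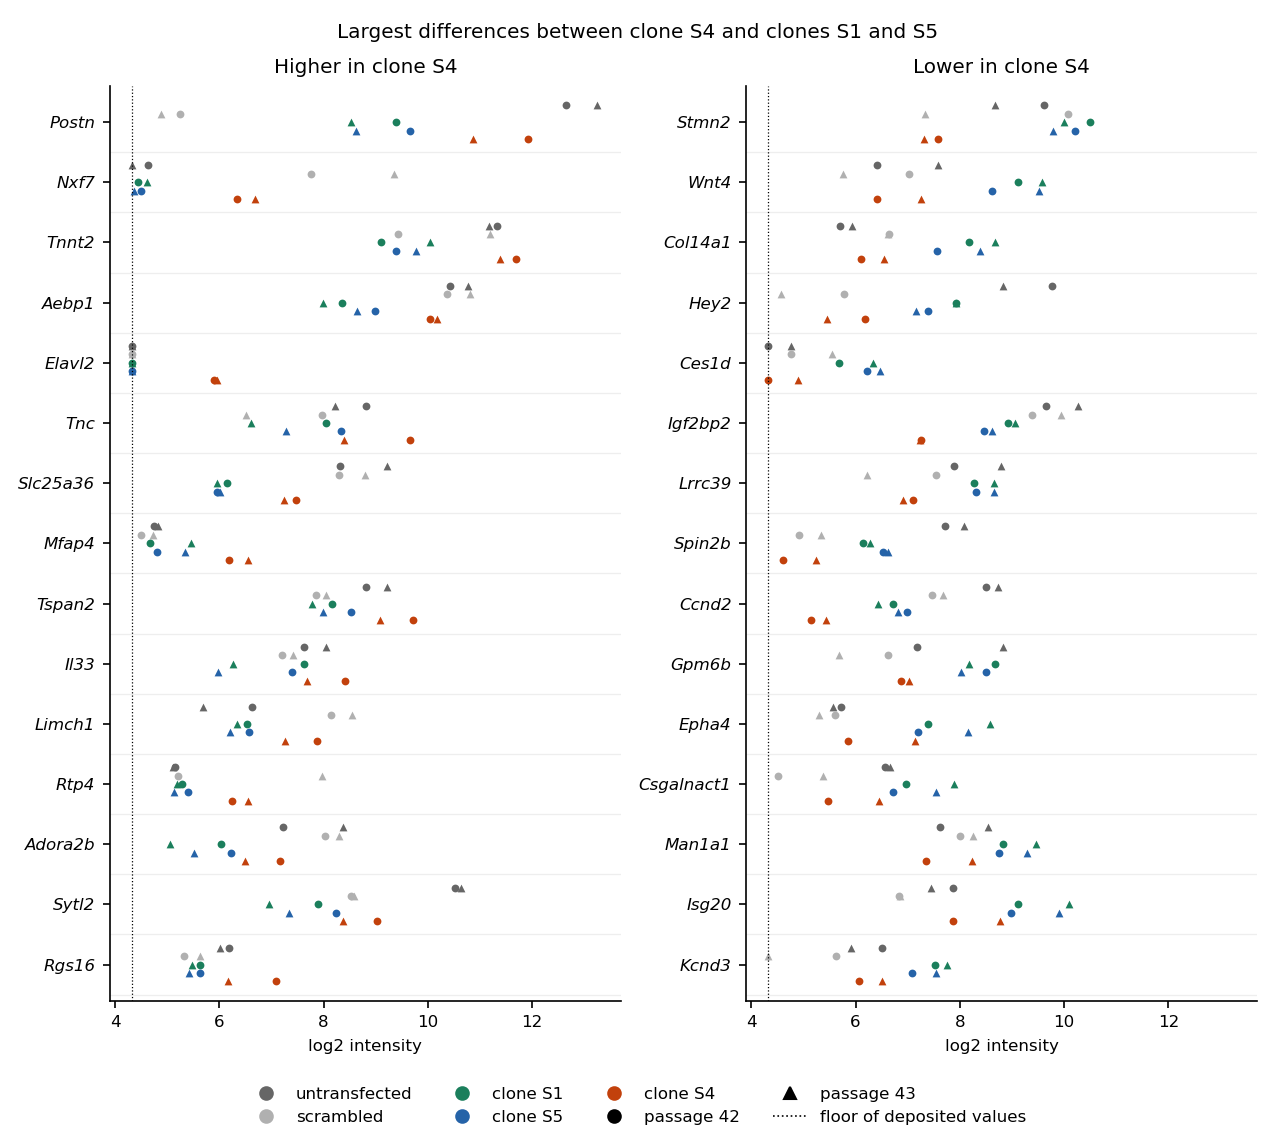
Levels of the 15 genes with the largest called differences in each direction, in log2 intensity (horizontal axis), 1 row per gene, with each point 1 array, lines by colour and passages by symbol. In every row both S4 arrays lie beyond all 4 arrays of S1 and S5, which is a condition for being shown. The dotted line is the floor at 4.32.

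Secreted matrix proteins outside the collagen family were called in both directions. Of 40 measured, 6 were higher and 2 lower in S4, 32 did not pass, and the list's median difference was 0.0016, against 0.531% of genes called higher, 0.485% called lower and a median of 0.0058 over all 13189 genes tested. In bulk samples fewer cells of a type and less RNA per cell cannot be told apart, which holds for every level here. Postn encodes periostin, a matricellular protein of fibrotic and healing tissue that binds collagen. In S4 it was at 11.92 at passage 42 and 10.86 at passage 43, in S1 at 9.38 and 8.53, and in S5 at 9.65 and 8.63. The S4 arrays did not overlap with the others, and the difference of 2.34 (SE 0.09, limma adjusted p = 0.000620) is 5.07-fold. The control lines lay on either side of the clones, at 12.65 and 13.25 in the untransfected and 5.25 and 4.88 in the scrambled line.

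Tnc, tenascin C, a glycoprotein of provisional matrix, was at 9.65 and 8.39 in S4, 8.05 and 6.61 in S1, and 8.33 and 7.28 in S5. The difference was 1.45 (SE 0.18, limma adjusted p = 0.0312), and Tnc fell by a like amount from passage 42 to 43 in each clone, by 1.26 in S4, 1.45 in S1 and 1.05 in S5. The microfibril-associated proteins Mfap4 and Mfap5, which bind elastic fibres, were higher by 1.3 (SE 0.09) and 0.98 (SE 0.12). Mfap4 was at 6.19 and 6.55 in S4, against 4.66 to 5.46 in S1 and S5 and 4.50 to 4.81 in the control lines. Both S4 arrays were above the control lines, while S1 and S5 exceeded them only at passage 43. Fbln2, the elastic fibre protein fibulin 2, was higher by 0.45 (SE 0.07), and Fn1, fibronectin, by 0.40, at 14.09 and 14.06 in S4 against 13.65 to 13.71 in S1 and S5. Fn1 was chosen after its values were seen.

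The small leucine-rich proteoglycans decorin and lumican, which bind collagen fibrils and limit their thickness, ran the other way. Dcn was at 6.64 and 8.92 in S4, 8.40 and 10.44 in S1, and 8.54 and 10.33 in S5, a difference of -1.65 (SE 0.10, limma adjusted p = 0.00303). Lum was at 8.65 and 11.19 in S4, 10.82 and 12.26 in S1, and 10.76 and 12.21 in S5, a difference of -1.59 (SE 0.22, limma adjusted p = 0.0406). Both genes were higher at passage 43 than at 42 in every line, so the S4 array of passage 43 overlapped with the passage 42 arrays of S1 and S5 while S4 was lower at each passage. The other members of that family did not move with them by limma: biglycan (Bgn), fibromodulin (Fmod), osteomodulin (Omd) and osteoglycin (Ogn) were at -0.06, -0.17, -0.36 and 0.12 and did not pass.

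Among 20 measured collagen genes 2 were higher, 1 was lower and 17 did not pass, with a median of -0.01. Col14a1, the fibril-associated collagen XIV, had the largest difference of any named gene in S4. Its probe set with the highest mean was at 7.19 and 8.94 in S4, 11.48 and 11.98 in S1, and 10.49 and 11.50 in S5. The difference of -3.30 (SE 0.33, limma adjusted p = 0.0173) is 9.83-fold, and a second probe set of the gene gave -1.87 (SE 0.18, limma adjusted p = 0.0145). S1 and S5 lay above all 4 control arrays on both probe sets and S4 did not. Col12a1, the related fibril-associated collagen XII, ran the other way, at 11.48 and 10.92 in S4 against 10.28 to 10.81 in S1 and S5, a difference of 0.69 (SE 0.07, limma adjusted p = 0.0175). Col16a1 was higher by 0.45 (SE 0.07, limma adjusted p = 0.0479). The fibrillar collagen chains Col1a1, Col1a2 and Col3a1 were at -0.02, 0.01 and -0.0045, with 95% intervals of -0.20 to 0.16, -0.13 to 0.16 and -0.17 to 0.17. Other probe sets of Col12a1, at 0.78 and 0.68, did not pass.

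**Figure D3:**
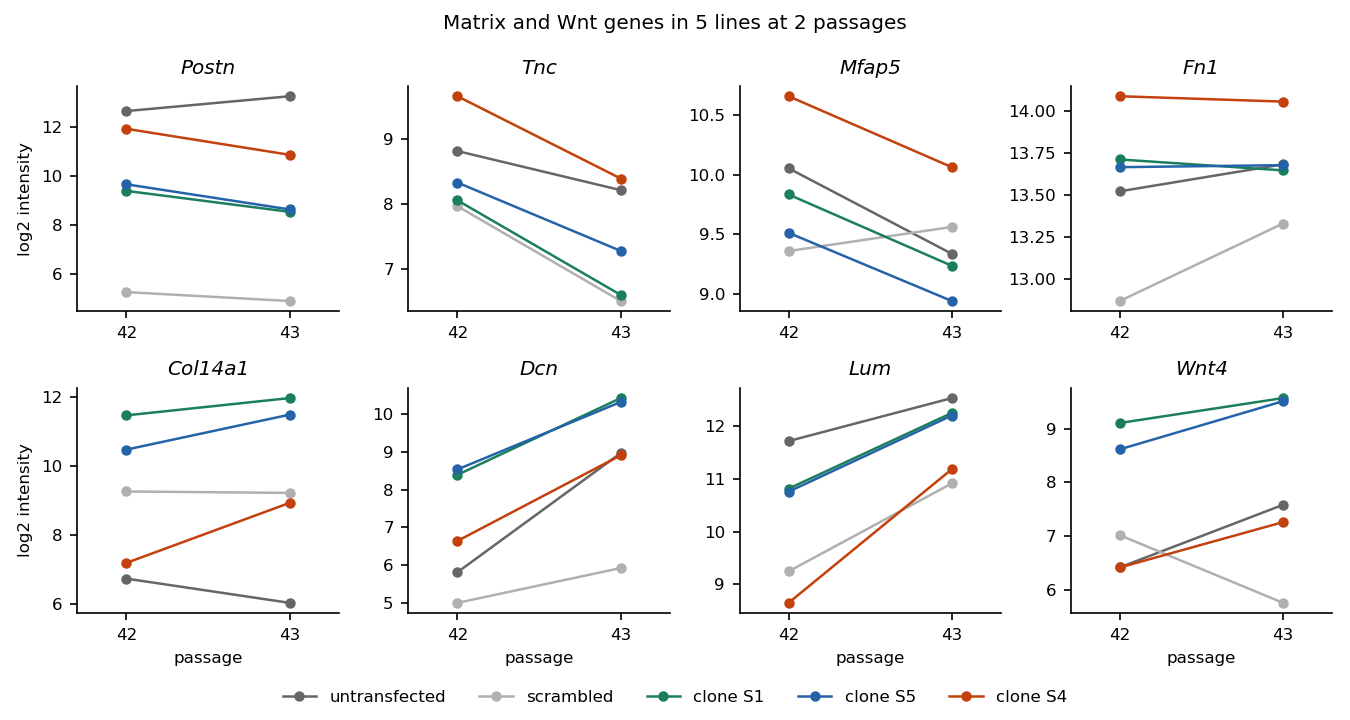
Levels of 7 matrix genes and Wnt4 in log2 intensity (vertical axis, a scale of its own per panel) at passages 42 and 43 (horizontal axis), with 1 line per cell line and 1 array per point. Postn, Tnc, Mfap5 and Fn1 are higher and Col14a1, Dcn, Lum and Wnt4 lower in S4 than in S1 and S5 at each passage.

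Of 30 matrix proteases and inhibitors, 2 were lower in S4, 28 did not pass and the median was -0.08. Ctsk, the collagen-degrading cathepsin K, was at -0.52 (SE 0.08, limma adjusted p = 0.0446) and Adam10, a membrane sheddase, at -0.45 (SE 0.07, limma adjusted p = 0.0472). Neither gelatinase A nor the Timp inhibitors passed: Mmp2 was at -0.54, Timp3 at -0.70 and Timp1 at 0.02. The highest difference of that list, 1.13, did not pass either. None of 14 collagen processing and crosslinking genes passed, and Loxl3, a lysyl oxidase, had the largest difference at 0.48 (limma adjusted p = 0.111). Aebp1, a collagen-binding secreted protein known from myofibroblasts, was at 10.04 and 10.17 in S4, 8.35 and 7.99 in S1, and 8.99 and 8.63 in S5. It was higher by 1.62 (SE 0.24, limma adjusted p = 0.0485), nearer to the 10.36 to 10.81 of the control lines than S1 and S5 were. A second probe set of Aebp1 was at 1.52 and one of Adam10 at -0.44, and neither passed. With quantile normalization its limma adjusted p = 0.0554, and Col16a1, Adam10, Actg2, Cxcl12, Cxcl10, Alcam, Ncam1 and Phlda2 also missed the threshold, with limma adjusted p of 0.0514 to 0.0673.

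Of 26 contractile and stellate activation genes, 3 were higher, none was lower and 23 did not pass. The median was 0.18. Csrp2, a LIM protein of smooth muscle and stellate cells, was at 11.29 and 10.20 in S4, 9.76 and 8.91 in S1, and 10.26 and 9.24 in S5, a difference of 1.2 (SE 0.16, limma adjusted p = 0.0344). Actg2, the enteric smooth muscle actin, was at 9.71 and 8.28 in S4, 8.46 and 7.59 in S1, and 8.85 and 7.51 in S5, a difference of 0.90 (SE 0.13, limma adjusted p = 0.0421). For both, S4 was above S1 and S5 at each passage but overlapped across passages. Mylk, the kinase that activates smooth muscle myosin, was at 7.50 and 7.87 in S4 and at 6.70 to 7.0 in S1 and S5, without overlap (difference 0.81, SE 0.09, limma adjusted p = 0.0184). Tagln, Cnn1 and Acta2, the usual markers of contractile stellate cells, were at 0.39, 0.77 and 0.30 and did not pass (limma adjusted p = 0.0915, 0.160 and 0.231). The untransfected line was above the scrambled line in Actg2, Mylk, Cnn1 and Acta2. The clones lay between these lines in Actg2, Cnn1 and Acta2. In Mylk, S4 also lay between them, while S1 and S5 overlapped with the scrambled line, which was at 6.27 and 7.42. A second probe set of Mylk, dim on all arrays, was at 0.03.

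Tnnt2, the thin-filament protein troponin T of heart muscle, was at 11.69 and 11.39 in S4, 9.09 and 10.03 in S1, and 9.38 and 9.77 in S5. It was higher by 1.97 (SE 0.22, limma adjusted p = 0.0211), and its S4 arrays lay above the control arrays, which reached 11.32. Limch1, an activator of non-muscle myosin, was higher by 1.15 (SE 0.09, limma adjusted p = 0.0106). A second probe set of Limch1 gave 1.22 and another 0.26, which did not pass by limma. Tnnt2 and Mylk are called genes of the contractile apparatus that held the motif CATTCC, the core of the muscle element MCAT, within 250 bases upstream of a RefSeq start site. These stretches are shown for that reason, in the sense of the gene, with the motif in capitals, 83 bases before the start in Tnnt2 (plus strand, chr13:49818980-49819105) and 36 bases before it in Mylk (minus strand, chr11:79498575-79498670), build GRCr8.
Tnnt2: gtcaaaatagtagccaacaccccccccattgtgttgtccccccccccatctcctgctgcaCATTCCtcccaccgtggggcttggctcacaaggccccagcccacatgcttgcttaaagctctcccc
Mylk: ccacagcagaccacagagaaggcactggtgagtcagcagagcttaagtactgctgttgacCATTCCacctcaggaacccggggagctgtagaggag
Counting both strands, CATTCC lay in the windows of 9 of 62 called higher genes with a RefSeq promoter (14.5%), 8 of 49 called lower genes (16.3%) and 1192 of 10907 measured genes (10.9%), and in 12.1% of all promoter windows of this length. The CArG box, searched by its usual consensus on both strands, lay in 1 of the 62, 1 of the 49 and 1.35% of the measured genes. A match is a run of letters, and no binding was analysed here.

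Wnt4, Wnt5a, Notch1 and Hey2 were lower in S4. Of 51 measured Notch, Wnt and Hedgehog genes 4 were lower, none was higher and 47 did not pass, with 24 above 0, 27 below 0 and a median of -0.0016. Wnt4, a secreted ligand that mostly acts outside the beta-catenin route, was at 6.41 and 7.26 in S4, 9.11 and 9.57 in S1, and 8.62 and 9.52 in S5. The difference was -2.37 (SE 0.14, limma adjusted p = 0.00266), or 5.16-fold. The control arrays lay between 5.75 and 7.58, so S1 and S5 stood outside their range and S4 within it. Wnt5a, a ligand of the same kind, was lower by 0.64 (SE 0.07, limma adjusted p = 0.0235).

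Notch1, a receptor, was at 5.88 and 5.64 in S4 and 6.35 to 6.65 in S1 and S5, a difference of -0.69 (SE 0.08, limma adjusted p = 0.0269). Hey2, a transcriptional repressor induced by Notch, was at 6.19 and 5.45 in S4, 7.94 and 7.93 in S1, and 7.39 and 7.16 in S5. It was lower by 1.79 (SE 0.26, limma adjusted p = 0.0455), and the control lines spanned 4.57 to 9.78 for this gene. A second probe set of Notch1 was at -0.59 and did not pass. Of other Notch targets, Hes1, Hey1, Heyl and Nrarp were at 0.10, -0.00082, 0.07 and 0.10 and did not pass. Jag1, a Notch ligand, was at -0.47 (limma adjusted p = 0.0692), and the other receptors Notch2, Notch3 and Notch4 were at 0.21, -0.05 and 0.09, none past the threshold.

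Stmn2, a microtubule-destabilising protein best known from neurons, was at 7.58 and 7.32 in S4, 10.50 and 9.99 in S1, and 10.21 and 9.79 in S5. The difference of -2.67 (SE 0.11, limma adjusted p = 0.000620) is 6.38-fold, and a second probe set gave -1.96 (SE 0.20). Epha4, an ephrin receptor of the tyrosine kinase class, was lower on 3 probe sets, at -1.34, -1.55 and -1.82, and was at -0.42 on another, which did not pass. Gpm6b, a membrane proteolipid, was lower by 1.39 (SE 0.15) and Kcnd3, a voltage-gated potassium channel, by 1.19 (SE 0.13). Kcnd3 had a second probe set at -1.2 and another at 0.12, which did not pass. Of 33 integrins, cadherins and other adhesion molecules 2 were higher, none was lower and 31 did not pass, with a median of -0.04. These were Alcam at 0.69 (SE 0.10, limma adjusted p = 0.0493) and Ncam1 at 0.69 (SE 0.10, limma adjusted p = 0.0438), both immunoglobulin-type adhesion molecules. The lowest difference of that list, -0.98, did not pass.

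Among RNA-binding proteins, Elavl2, a neuronal-type stabiliser of AU-rich messages, was detected on the S4 arrays and at the floor on all 4 arrays of S1 and S5 and all 4 control arrays. Its level in S4 was 5.91 and 5.95, at least 3.05-fold higher, a lower bound against the floor of 20 per array (limma adjusted p = 0.000620). A second probe set of Elavl2 was also at the floor outside S4 and at 5.90 and 5.77 in S4. Another, at 6.31 and 6.14 in S4 and 5.96 to 6.02 in S1 and S5, did not pass. Nxf7, a relative of the messenger RNA export factor Nxf1, was at 6.34 and 6.69 in S4 and 4.36 to 4.61 in S1 and S5, close to the floor (difference 2.04, SE 0.11). The scrambled line had 7.76 and 9.36. Igf2bp2, an oncofetal messenger RNA-binding protein, was at 7.26 and 7.23 in S4 and 8.46 to 9.05 in S1 and S5, lower by 1.52 (SE 0.17, limma adjusted p = 0.0208). Igf2bp2 was at -0.13 on its other probe set and did not pass.

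Other genes with large differences came from several functions. Slc25a36, a mitochondrial pyrimidine nucleotide carrier, was at 7.47 and 7.25 in S4 and 5.96 to 6.14 in S1 and S5, below the 8.30 to 9.21 of the control lines on both sides (difference 1.34, SE 0.08). Higher by 1.09 to 1.29 were Tspan2, a tetraspanin, Adora2b, a receptor of adenosine, Sytl2, a synaptotagmin-like protein of vesicle transport, and Rgs16, an inhibitor of G protein signalling. Man1a1, a Golgi mannosidase of N-glycan trimming, was lower by 1.28 (SE 0.09) and Csgalnact1, which starts chondroitin sulfate chains, by 1.32 (SE 0.12). Ces1d, a liver-type carboxylesterase, was lower by 1.57 (SE 0.15), with S4 at 4.32 and 4.90, at or near the floor, so its difference may be a lower bound. Lrrc39 and Spin2b were each lower by 1.47. The 30 genes of the largest called differences were taken among those with both S4 arrays beyond the other 4. Of these genes 15 had other probe sets, 20 in all. Of these probe sets, read on the same arrays, 19 lay in the same direction and 12 were themselves called.

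Among 44 inflammatory and NF-kB response genes, 2 were higher, 1 was lower and 41 did not pass, with a median of -0.02. Cxcl12, a stromal chemokine that retains leukocytes and progenitors, was at 9.23 and 10.62 in S4, 10.96 and 11.76 in S1, and 10.47 and 11.44 in S5. It was lower by 1.23 (SE 0.18, limma adjusted p = 0.0455), while all 3 clones lay above the 5.38 to 8.68 of the control lines. Its other probe sets were at -0.97 and -0.93 and did not pass. Tnfaip3, the ubiquitin-editing brake on NF-kB known as A20, was at 7.89 and 7.84 in S4 and 6.92 to 7.20 in S1 and S5, without overlap (difference 0.82, SE 0.10, limma adjusted p = 0.0269). Cxcl10, an interferon-induced chemokine, was higher by 0.51 (SE 0.07, limma adjusted p = 0.0427). Il33, an alarmin of the interleukin-1 family, was at 8.42 and 7.67 in S4, 7.62 and 6.27 in S1, and 7.39 and 5.97 in S5, higher by 1.23 (SE 0.16, limma adjusted p = 0.0357). Il33 was at 0.79 on its other probe set and did not pass (limma adjusted p = 0.0586).

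Of 29 interferon response and antigen processing genes 1 was lower, none was higher and 28 did not pass, with a median of 0.03. It was Isg20, an exonuclease induced by interferon, at 7.87 and 8.78 in S4, 9.11 and 10.10 in S1, and 8.97 and 9.90 in S5 (difference -1.2, SE 0.08, limma adjusted p = 0.00535). Rtp4, another interferon-induced gene, was higher by 1.15 (SE 0.11), with S4 at 6.25 and 6.54 and S1 and S5 at 5.12 to 5.4. These genes thus moved in opposite directions.

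**Figure D4:**
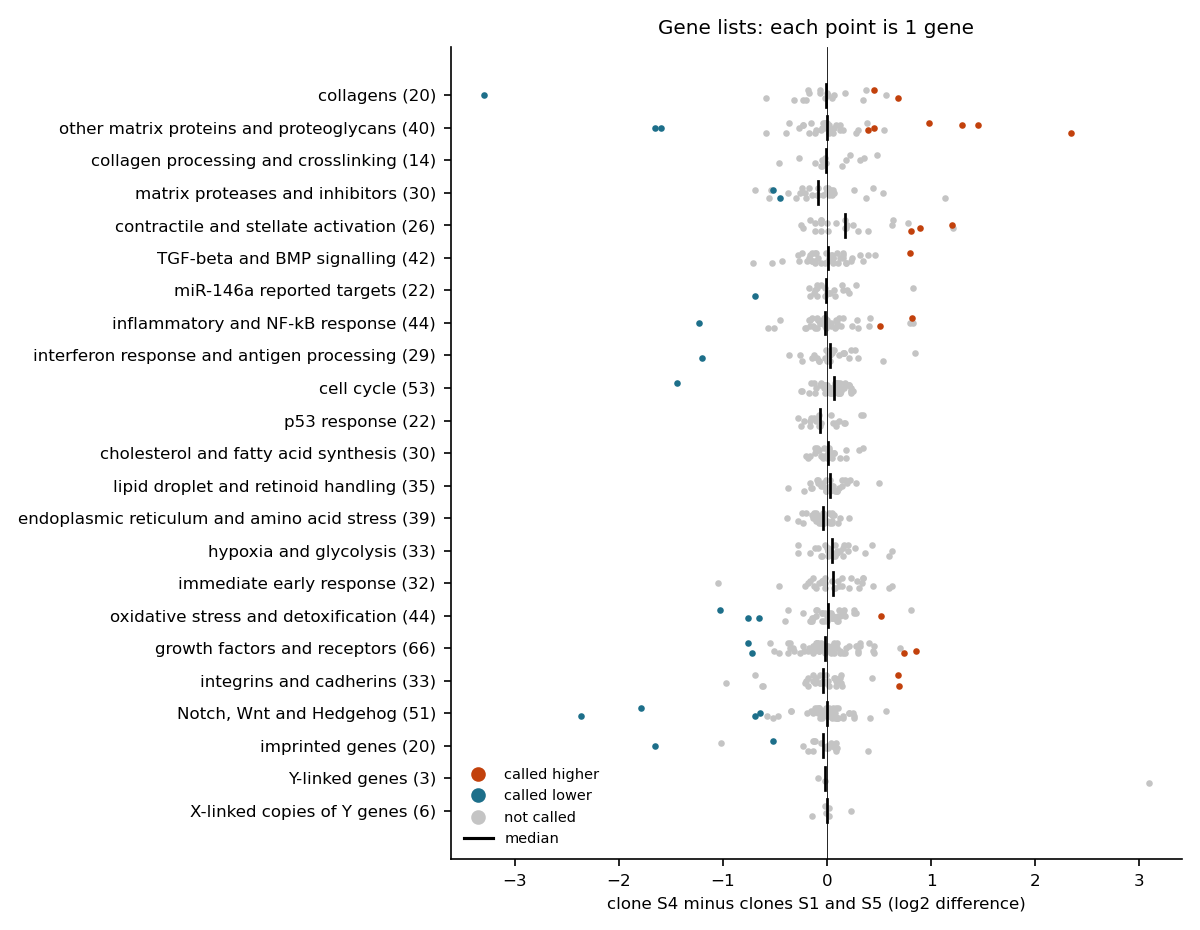
Differences between S4 and the mean of S1 and S5 on the log2 scale (horizontal axis) for the genes of 23 lists (rows, with the number measured), 1 point per gene. Coloured points passed the limma threshold, higher in orange and lower in blue, and the black bar is the list's median, which lies between -0.08 and 0.18 in all lists.

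Of 66 growth factors and receptors 2 were higher, 2 were lower and 62 did not pass, and the median was -0.02. Pdgfd, a ligand of the PDGF beta receptor, was at 5.37 and 5.31 in S4 and 4.38 to 4.60 in S1 and S5, low levels near the floor (difference 0.86, SE 0.08, limma adjusted p = 0.0142). Tgfa, a ligand of the epidermal growth factor receptor, was higher by 0.74 (SE 0.10, limma adjusted p = 0.0357). Fgf7, a paracrine factor for epithelium, was lower by 0.72 (SE 0.10) and Kitlg, stem cell factor, by 0.76 (SE 0.08). Of 42 TGF-beta and BMP genes only Tgfbi, a matrix protein induced by TGF-beta, passed, at 7.18 and 6.63 in S4 and 5.65 to 6.63 in S1 and S5 (difference 0.80, SE 0.10, limma adjusted p = 0.0265). The median of that list was 0.01.

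Of 44 oxidative stress and detoxification genes 3 were lower, 1 was higher and 40 did not pass, with a median of 0.01. The lower ones were Mgst3, a microsomal glutathione transferase, at -1.03 (SE 0.07), Ephx1, microsomal epoxide hydrolase, at -0.76 (SE 0.07), and Gpx3, the secreted glutathione peroxidase, at -0.65 (SE 0.09). Gstm5, a cytosolic glutathione transferase, was higher by 0.52 (SE 0.08). In the cell cycle list 1 of 53 genes passed. This was Ccnd2, cyclin D2, which drives entry into S phase, at 5.15 and 5.44 in S4, 6.71 and 6.43 in S1, and 6.98 and 6.82 in S5 (difference -1.44, SE 0.16, limma adjusted p = 0.0216). The control lines were at 7.48 to 8.73, so all 3 clones were below them and S4 was the lowest. The median of the list was 0.06 and its other members lay between -0.25 and 0.25.

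Of 22 reported miR-146a targets, 1 was lower and none was higher, with 11 above 0, 11 below 0 and a median of -0.0079. The called gene was Notch1, given above. The highest difference of that list, 0.82, did not pass. Irak1 was at 10.79 and 10.82 in S4, 10.97 and 10.84 in S1, and 10.90 and 11.01 in S5, a difference of -0.12 with a 95% interval of -0.29 to 0.06. Traf6 was at 0.02 (interval -0.17 to 0.21), Smad4 at 0.15 (interval 0.0043 to 0.30, limma adjusted p = 0.339) and Egfr at 0.28 (interval -0.33 to 0.89). None of these passed the limma threshold, and the intervals are for each gene alone.

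None of the genes on 7 further lists passed by limma: p53 response (22 measured), cholesterol and fatty acid synthesis (30), lipid droplet and retinoid handling (35), endoplasmic reticulum and amino acid stress (39), hypoxia and glycolysis (33), immediate early response (32) and X-linked copies of Y genes (6). Their medians lay between -0.07 and 0.06. The largest differences in them were Plk2 at 0.35, Ebp at 0.35, Star at 0.50, Vldlr at -0.39, Aldoc at 0.62, Nr4a3 at -1.04 and Kdm5c at 0.23. Over all probe sets limma gave 3870 with an unadjusted p under 0.05. Of 20 imprinted genes Phlda2, a placental growth inhibitor, was lower by 0.52 (SE 0.07) beside Dcn, and Plagl1, a zinc finger factor, was at 0.39 and did not pass. Of the Y-linked genes, Eif2s3y, a translation initiation factor, was at 10.44 and 10.43 in S4 and 10.33 and 10.42 in S1, and at the floor on both S5 arrays. S4 thus resembled S1 and the control lines there, and the difference of 3.09 from the mean of S1 and S5 (SE 2.05) came from S5 and did not pass. Uty, a histone demethylase of the Y chromosome, was at 7.97 and 8.01 in S4 and 8.0 to 8.14 in S1 and S5, and Sry was at 4.32 to 4.55 on all 6 clone arrays.

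Markers of other cell types moved in part. Of 7 biliary epithelial markers, Krt8, a keratin of simple epithelia, was higher in S4, at 7.72 and 8.55 against 6.67 and 7.55 in S1 and 7.03 and 7.87 in S5 (difference 0.86, SE 0.13, limma adjusted p = 0.0485). The summed intensity of the list was 2545 to 5240 in S4, 1803 to 3371 in S1 and S5 and 1601 to 3451 in the controls. Most of that sum was Spp1, osteopontin, with mean intensities of 3448 in S4 and 2248 in S1 and S5, which was not called (difference 0.55, limma adjusted p = 0.375). Krt7, Krt19, Cftr, Prom1 and Krt18 had mean intensities of 20 to 51.2 on both sides. Epcam and Cdh1, the defining epithelial markers, did not exceed the floor on any clone array. Of 15 portal fibroblast and mesothelial markers, Mfap4, Krt8 and Fbln2 were higher and 12 did not pass. That list summed to 10143 to 11030 in S4, 7256 to 9668 in S1 and S5, and 14956 to 17305 in the controls, and its part in the matrix differences was not tested. Endothelial and leukocyte markers had 0 of 11 and 0 of 14 called.

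The control lines place the differences. A side was said to depart where all its arrays lay above, or all below, the 4 control arrays. Of the 226 called probe sets, only S4 departed in 36, only S1 and S5 in 47, both on the same side in 51, both on opposite sides in 1, and neither in 91. Over all 27210 tested, the shares of these classes were 9.33%, 3.87%, 7.54%, 0.0147% and 79.2%. The rule asks for 2 arrays of S4 but 4 of S1 and S5, so S4 meets it more easily, and the counts of both sides are not on equal terms. With the control range widened by 0.5 on each end the counts were 28, 33, 16, 0 and 149. The shares over all probe sets tested were then 0.676%, 0.423%, 0.956%, 0% and 97.9%. In 135 of the 226 the mean of S1 and S5 was farther from the control mean than that of S4, and in 91 S4 was farther. The same count over all probe sets tested is not given here, so this describes the calls only. Of the 36 called probe sets in which S4 alone departed, 28 were higher and 8 lower in S4. The 6 genes of that class with the largest differences were Tnnt2, Elavl2, Mfap4, Srpx2, Mfap5 and Pdgfd, all higher. In Tnnt2 and Mfap5 the departure of S4 rests on a small margin. Their lower S4 arrays, at 11.39 and 10.06, were just above the highest control arrays, at 11.32 and 10.05. In Tnnt2 the mean of S1 and S5 was farther from the control mean, at -1.21, than that of S4, at 0.76. Srpx2, a secreted ligand of the urokinase receptor, was at 9.97 and 10.04 in S4, 8.58 to 9.31 in S1 and S5, and up to 9.46 in the control lines. Of the 47 called probe sets in which S1 and S5 alone departed, 16 were higher and 31 lower in S4. The 6 genes of that class with the largest differences were all lower in S4. They were Wnt4, Col14a1, Stmn2 on its second probe set, Ces1d, Epha4 on its brightest probe set and Csgalnact1. On that probe set of Epha4, S4 at passage 43, at 8.81, was above the highest control array, at 7.17. On another called probe set of Epha4 both sides lay above the controls. On a brighter called probe set of Csgalnact1 neither side departed. On the second probe set of Stmn2, S4 at passage 42, at 5.03, was below the lowest control array, at 5.27. The S4 arrays of Wnt4 and Col14a1 lay within the control range. Since the untransfected and scrambled lines differ widely in genes such as Postn and Hey2, their range is broad there and includes all clones.

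**Figure D5:**
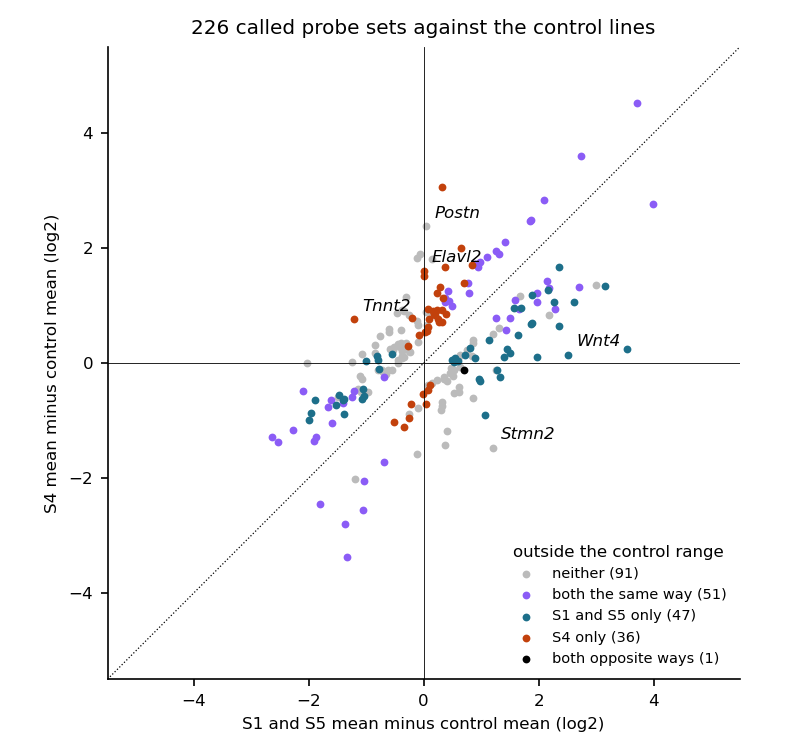
Each point is 1 of the 226 called probe sets, with the mean of S1 and S5 minus the control mean (horizontal axis) and the mean of S4 minus the control mean (vertical axis), both on the log2 scale. Colours give the side with all its arrays above or below the 4 control arrays, S4 only for 36 and S1 and S5 only for 47, and the dotted line marks equal differences.

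S4 was also set against each other clone, with 1 coefficient per clone in a fit over the same 6 arrays. limma called 375 probe sets between S4 and S1 (1.38%, 217 or 0.798% higher and 158 or 0.581% lower) and 129 between S4 and S5 (0.474%, 68 or 0.25% higher and 61 or 0.224% lower). Between S1 and S5 it called 11 (0.0404%, 4 or 0.0147% higher in S1 and 7 or 0.0257% lower), with 1749 at an unadjusted p under 0.05. The standard deviation of the differences over probe sets was 0.21 for S4 against S1, 0.19 for S4 against S5 and 0.15 for S1 against S5, and 162, 97 and 30 probe sets differed by more than 1. The largest genes were alike against both: Postn was higher by 2.43 than in S1 and by 2.25 than in S5, Stmn2 was at -2.80 and -2.55, and Wnt4 at -2.50 and -2.23. Aebp1 was at 1.94 and 1.3 and Hey2 at -2.11 and -1.46, and for neither was the difference between S1 and S5 called. These comparisons share the S4 arrays. The genes were chosen on the same arrays, by calls that keep the difference between S1 and S5 in the error. That choice largely fixes the likeness against both clones, which is no support for the calls. Without the block the counts were 4, 3 and 3, and with any 1 array left out they were at most 6, 9 and 2.

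No difference in the passage change of S4 passed the threshold. limma called none of 27210 probe sets for a difference between the passage change of S4 and that of S1 and S5 (0%), with 1685 at an unadjusted p under 0.05 and a lowest adjusted p of 0.768. S4 has 1 array per passage, so the error there came from S1 and S5 alone and only large differences could pass. Among the genes named above, Col14a1 rose from passage 42 to 43 by 1.74 in S4 against 0.50 in S1 and 1.02 in S5, and Lum by 2.54 against 1.44 and 1.45, neither of which passed. Postn was lower at passage 43 by similar amounts, with changes of -1.06, -0.86 and -1.03.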

How the data were processed

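The authors deposited 1 table of array intensities on a linear scale with a floor of 20, and RMA is the method that the submitters' processing notes name. Its version and the step to this scale were not given in the sources used here. Of all values 14.6% were at the floor. Tests used log2 of these deposited intensities. Left out were 57 array controls and 3832 probe sets at the floor on all 6 clone arrays. Gene names came from the platform annotation: of the tested probe sets 19035 had 1 symbol, 395 several and 7780 none, and 18975 were found by gene identifier in the RefSeq table of GRCr8, with 0 symbols changed.

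The fit was limma 3.58.1 in R 4.3.3 with eBayes, S4 against S1 and S5 as 1 side and passage as a block (3 residual degrees of freedom), with Benjamini-Hochberg adjustment over 27210 probe sets. S1 and S5 as 1 side keeps their difference in the error. Intervals are 95% from the moderated fit. Same-numbered passages correlated over 0.1 in every pair of clones, so passage was taken to pair the arrays. The procedure was also run on simulated data with independent noise on each array. That setting holds no spread between clones, so it is no support for the calls.

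Named were the 15 largest called genes each way (both S4 arrays beyond the other 4, the probe set with the smallest p), up to 4 called genes per list, or the largest difference where none was called, 6 per class of departure, the Y-linked genes, and Irak1, Traf6, Smad4 and Egfr. List genes were taken from the probe set with the highest mean, and genes named beside them were chosen after their values were seen. The members and lists were chosen with earlier results of these data known. Drawings used matplotlib 3.10.9 in Python 3.11.15.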

Additional observations from a re-analysis of the deposited data

Results flagged for a closer look

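Among the 79 named genes, 3 had 1 array standing apart from the others within the 4 arrays of S1 and S5. Chance alone gives such a gap in about 1 of 20 groups. Ebp, a sterol isomerase, was at 8.83 in S1 at passage 42 and at 8.95 to 8.97 on the other 3 arrays. Ncam1 was at 8.65 in S1 at passage 43 and at 8.85 to 8.88 on the others. Sry was at 4.55 in S5 at passage 42 and at the floor of 4.32 on the others.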

How the results depend on the processing

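The direction of all 63 called probe sets of named genes was kept in every alternative that tested them, while the calls depended on the fit. The kept direction was largely fixed in advance and is no support for the calls. Several alternatives change only the error and return the same difference. In all 226 calls S4 lay beyond S1 and S5 at both passages, so leaving out an array or a clone keeps the sign. For S4 against S1 and S5 (226 called) the count was 192 with quantile normalization, of which 188 were shared with the 226, and 8 without the replicate block. It was 378 with 1 coefficient per clone, 29 with all 10 arrays, 0 with 3 line means, 341 with 16 added to the intensities, 474 with at least 2 arrays of 64 or more, 537 with an intensity trend, 0 against S1 only and 9 against S5 only. With no filter it was 2, a fit that includes probe sets at the floor on all 6 arrays, which have no variance. Leaving out 1 array gave 0 to 34, with 0 without either S4 array. Without the replicate block the counts for S4 against S1, S4 against S5 and S1 against S5 were 4, 3 and 3, and leaving out 1 array gave 0 to 6, 1 to 9 and 1 to 2. The genes called on the lists numbered 37, and 0 without the replicate block. With the control range widened by 0.5, 16 called probe sets departed on both sides the same way, 0 in opposite ways and 149 on neither. Signs turned only in genes that were not called: Fgg was at -0.0663 and Egfr at -0.0247 against S5 only, and Traf6 at -0.0588 and Sry at 0.0390 against S1 only. With 1 array left out, Traf6 ranged from -0.0245 to 0.0585, below 0 without S4 of passage 42 and without either S5 array, and Sry from -0.0637 to 0.0334, above 0 without S5 of passage 42. The cause of these changes was not tested. The number of arrays limits the precision.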

Other observations

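Several transcription regulators outside the lists were among the called genes. They were chosen after their values were seen. Scx, scleraxis, a factor of tendon and matrix-producing fibroblasts, was at 11.25 and 11.03 in S4 and 10.37 to 10.50 in S1 and S5, higher by 0.69 (SE 0.08), with all 3 clones above the 8.83 to 9.23 of the control lines. Foxs1, a forkhead factor of pericytes, was at 7.71 and 8.13 in S4 and 6.83 to 7.09 in S1 and S5, higher by 0.90 (SE 0.10). Prrx2, a homeobox factor of mesenchyme, was lower by 1.07 (SE 0.09) on 1 probe set, at 5.36 and 7.06 in S4, 6.59 and 7.91 in S1 and 6.63 and 7.96 in S5, and at 0.02 on a second, where it did not pass.

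Rassf4, a Ras-association domain protein, was higher in S4 on all 3 of its probe sets, by 1.96, 1.95 and 1.67. On the first it was at 10.02 and 8.48 in S4, 8.06 and 6.18 in S1, and 8.58 and 6.36 in S5, so S4 was above the others at each passage but overlapped across passages. Clmp, an adhesion molecule of the immunoglobulin family, was higher by 1.04 and 0.93 on its 2 probe sets. On the first, S4 was at 10.09 and 10.48, within the 9.95 to 11.00 of the control lines, and S1 and S5 lay below them at 9.04 to 9.45.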
